A study of Mus musculus with 6 samples.

Results

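The Toll-like receptor (TLR), NF-κB and inflammasome genes were 47 of the 25701 genes in the count table. They were chosen by symbol from a list of receptors, adaptors, kinases, NF-κB subunits, inhibitors and inflammasome components. The rule uses no measured value, but the genes were chosen with earlier results of these data known. RNA was measured in CD11b+ cells bead-purified from subcutaneous flank tumors grown from TC1, a mouse lung epithelial tumor line. All mice carried floxed MCT2 alleles (MCT2 loxP/loxP) and the tamoxifen-inducible Cre transgene mCre-Tg, which acts throughout the body and not in myeloid cells alone. MCT2 KO mice (3 libraries) received tamoxifen daily for 5 days from the age of 8 weeks, and MCT2 CO mice (3 libraries) received vehicle. TC1 cells were injected 2 days later and tumors were taken after 24 days. No group received tamoxifen without the floxed alleles, so the action of tamoxifen and Cre cannot be told apart from that of the MCT2 deletion. Labels give the tissue as lung and the cell type as purified macrophage. They do not say whether each library came from a single mouse, so the p-values measure only the spread between these preparations.

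Toll-like receptors bind microbial and damage-associated molecules at the cell surface or in endosomes and signal through adaptors with a TIR domain. IRAK kinases, TRAF ubiquitin ligases and the TAK1 kinase complex then activate the IκB kinases (IKK), which free NF-κB dimers from IκB proteins. NF-κB in turn drives transcription of cytokines and of its own inhibitors, and inflammasomes are cytosolic complexes that activate caspase-1, which matures IL-1β and IL-18 and cleaves gasdermin D.

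None of the 46 measurable genes passed the test between MCT2 KO and MCT2 CO, edgeR's quasi-likelihood test with thresholds of 0.05 on the adjusted p and of 1.49 on the fold (0.58 on the log2 scale). None of the 13485 genes tested did so, so the share called over all genes was 0%. Before adjustment, at an unadjusted p of at most 0.05, Tlr4, Tlr5, Tlr6, Ticam2, Tab1 and Aim2 were higher in MCT2 KO and Nfkbib was lower. The 6 higher genes were 13.0% of the 46, against 3.77% of all genes tested, and the 1 lower gene was 2.17%, against 5.60%. Groups did not overlap for 6 genes that were higher in MCT2 KO (Tlr4, Tlr5, Tlr6, Ticam2, Tab1 and Ikbkg), against 7.07% of all genes, and for 2 that were lower (Tirap and Nfkbib), against 8.77%. For a single gene with non-overlapping groups the exact two-sided permutation p is 0.1, the smallest that 3 samples against 3 can give. By DESeq2 on all genes with a count, none of the 46 was called, while 83 of 14202 genes with an adjusted p (0.584%) were.

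The width of the intervals sets what these data can show. The 95% interval of the fold change lay wholly within 0.58 on either side of 0 on the log2 scale for 29 of the 46 genes (63.0%), against 65.8% of all genes tested. Of the 46 genes, 30 had a fitted log2 fold change above 0 (65.2%), against 50.1% of all genes. The median log2 fold change of the 46 was 0.094, and that of all genes tested was 0.00037. By role, 9 of 10 TLR genes and 5 of 7 inflammasome genes were fitted above 0, with medians of 0.22 and 0.17. All 5 NF-κB subunit genes were fitted below 0, with a median of -0.15, and so were 4 of 6 feedback inhibitors, with a median of -0.048. Leaving out 1 library moved these medians, from 0.081 (without MCT2 CO replicate 3) to 0.37 (without MCT2 CO replicate 1) for the TLR genes and from 0.088 (without MCT2 CO replicate 3) to 0.33 (without MCT2 KO replicate 2) for the inflammasome genes. For the NF-κB subunits they ran from -0.22 (without MCT2 KO replicate 1) to -0.035 (without MCT2 KO replicate 2). The median of the feedback inhibitors turned, from -0.22 with 0 of 6 above 0 (without MCT2 KO replicate 1) to 0.10 with 5 of 6 above 0 (without MCT2 KO replicate 2). The median of all 46 genes was -0.017 without MCT2 KO replicate 1 and 0.21 without MCT2 KO replicate 2. The plot of fold changes by role shows these values with their intervals.

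**Figure D1:**
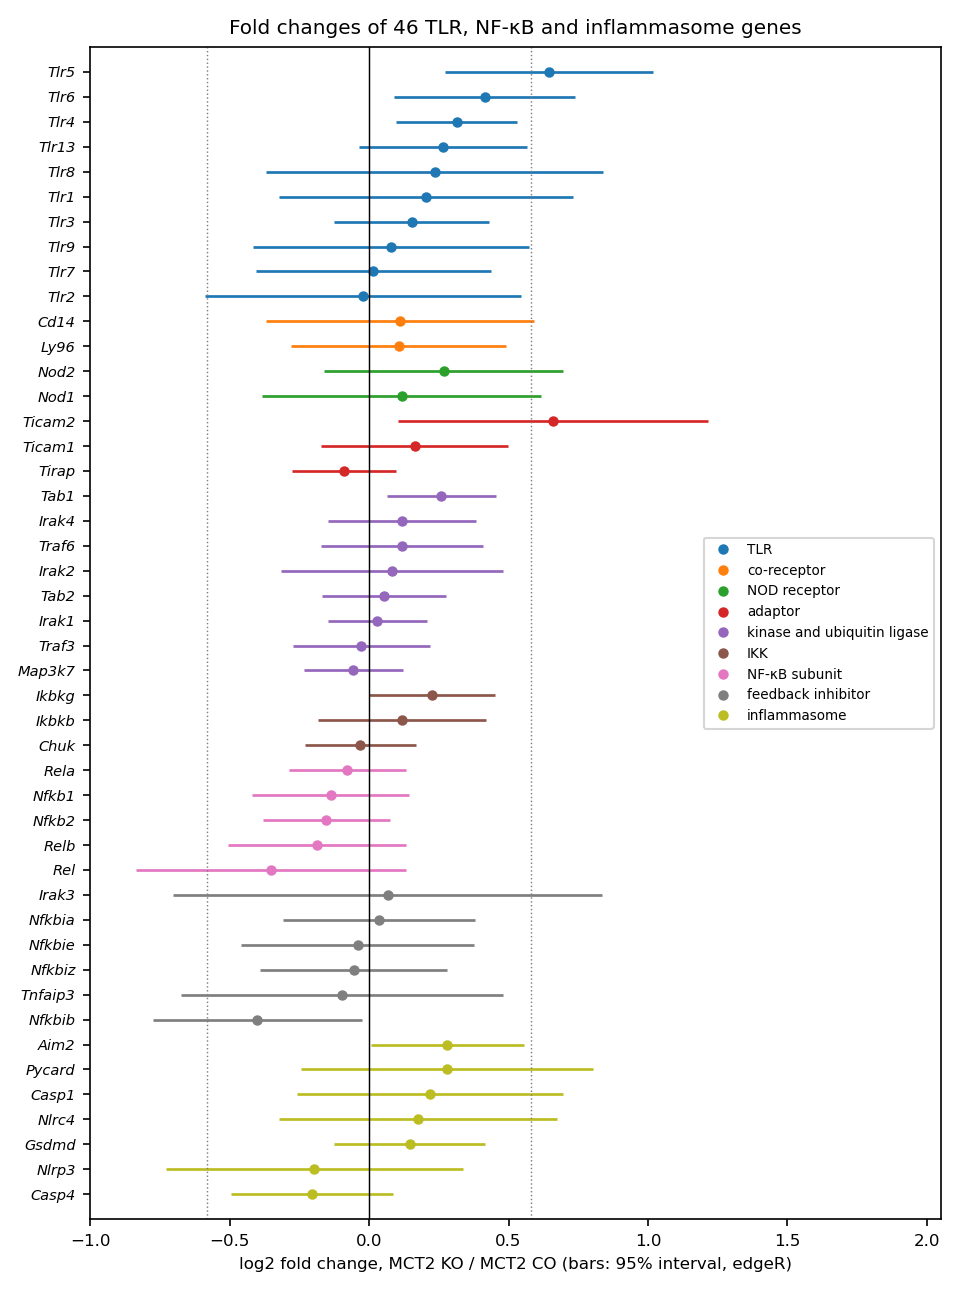
Fitted log2 fold change (MCT2 KO over MCT2 CO, edgeR, n = 3 per group) of the 46 measurable genes, colored by role; points are estimates, bars 95% intervals, dotted lines a log2 fold change of 0.58 in either direction. The intervals of Tlr4, Tlr5, Tlr6, Ticam2, Tab1 and Aim2 lie above 0 and that of Nfkbib below 0, and no adjusted p was below 0.380.

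Total counts ranged from 24863611 to 31713704 per library. Counting error thus matters mainly for Ticam2, at 2 to 5 CPM (counts scaled to library size by TMM), and next for Ly96, at 6.42 to 9.12 CPM. Slc16a7, which encodes MCT2, was at 16.0, 11.0 and 11.2 CPM in MCT2 CO and at 8.22, 4.97 and 5.34 CPM in MCT2 KO. Its groups did not overlap, and its log2 fold change was -1.05 ± 0.24 (SE), with an edgeR adjusted p of 0.370. Macrophage markers were abundant, at a summed 5548 to 7504 CPM in MCT2 CO and 6695 to 10557 CPM in MCT2 KO, and none of the 12 was at 0. All 11 of them that were tested were fitted higher in MCT2 KO, 1 of them at an unadjusted p of at most 0.05. Itgam, the gene of CD11b itself, had 1 count over all samples, and 99.1% of its exons lie inside the span of Gm49368. Markers of other cells were present as well. Neutrophil markers summed to 111 to 127 CPM in MCT2 CO and 117 to 211 CPM in MCT2 KO. Most of the sum was Csf3r and Mmp9, whose groups overlapped. Of the 9 tested, 8 were fitted higher, 6 of them at an unadjusted p of at most 0.05, and 1 (Cxcr2) lower. DESeq2 called 5 of these markers, all higher. None of the 13 was at 0, and Ly6g had 8 counts over all samples. Immediate-early and heat-shock genes induced by tissue dissociation summed to 16493 to 19725 CPM in MCT2 CO and 13639 to 16915 CPM in MCT2 KO, and 11 of 20 were lower at that p. Fewer cells of a type and less RNA per cell cannot be told apart in these bulk samples. The part of these cell and dissociation signals in the values below was not tested.

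Not every gene of the pathway could be read equally well. The table's gene lengths are whole gene spans, and all 478 protein-coding genes lying wholly inside a gene of the opposite strand had 0 counts. Myd88, the adaptor of most TLRs, had 0 counts in all 6 samples. All of its exons (chr9:119335934-119341411, minus strand, GENCODE M21 on GRCm38) lie inside the span of Slc22a14, so it was not measured here and its count says nothing of its expression. Exons were also shared with other spans to 49.2% in Ticam2 (with Tmed7), 38.4% in Irak4 (Twf1), 35.0% in Nfkbib (Ccer2 and Sirt2) and 12.8% in Pycard, and their counts are taken as partial.

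Tlr1 and Tlr6 are related genes that lie side by side on chromosome 5 and share stretches of sequence, so part of their counts is uncertain. Of the stretches of 50 bases in Tlr1 transcripts, 13.6% also occur in Tlr6, and 12.3% of those in Tlr6 also occur in Tlr1. The longest run the pair shares is 229 coding bases, at chr5:64925537-64925765 in Tlr1 and chr5:64953828-64954056 in Tlr6, both on the minus strand of GRCm38. It is shown because a read that lies wholly within it matches both genes, which bears on the Tlr6 result below.
Tlr1 and Tlr6, shared coding run: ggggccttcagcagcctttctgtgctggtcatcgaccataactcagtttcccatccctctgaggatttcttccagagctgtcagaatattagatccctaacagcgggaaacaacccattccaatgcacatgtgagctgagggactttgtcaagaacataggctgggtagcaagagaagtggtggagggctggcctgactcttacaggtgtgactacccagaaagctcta

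NF-κB binds DNA sites of related sequence, and several of its own regulators carry such sites. A simplified form of these sites, GGGANNNNCC, was used here. These letters were searched on both strands in RefSeq promoter windows (GRCm38.p6) from 250 bases before to 50 after each start. A window existed for 36 of the 47 genes, and 16 of them (44.4%) held a match, against 22.9% of the 27025 genes with a window. Matches lay in all 3 NF-κB subunit genes with a window, in 3 of 5 feedback inhibitors and in 3 of 8 TLR genes (Tlr2, Tlr3 and Tlr5). A match is a description of letters, not of a bound site, and was not checked against a stricter form of the site. The 250 bases before the start are shown for Tlr5, the receptor with the lowest p, for Rel, the NF-κB subunit with the lowest fitted fold change, and for Nfkbia, the inhibitor with the highest level per kb of exon, with the matched letters in capitals. They lie at chr1:182954538-182954787 (plus strand), chr11:23770970-23771219 (minus strand) and chr12:55492648-55492897 (minus strand).
Tlr5: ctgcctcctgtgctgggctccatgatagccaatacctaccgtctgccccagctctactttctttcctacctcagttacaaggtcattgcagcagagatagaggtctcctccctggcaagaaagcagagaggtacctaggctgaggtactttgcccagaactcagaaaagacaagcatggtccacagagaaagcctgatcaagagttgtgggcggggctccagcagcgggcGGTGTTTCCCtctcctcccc
Rel: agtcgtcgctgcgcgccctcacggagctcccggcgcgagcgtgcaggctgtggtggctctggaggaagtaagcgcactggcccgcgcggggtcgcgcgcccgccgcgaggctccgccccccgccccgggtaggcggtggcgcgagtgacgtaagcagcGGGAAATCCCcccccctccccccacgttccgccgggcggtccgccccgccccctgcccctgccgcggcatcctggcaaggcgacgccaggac
Nfkbia: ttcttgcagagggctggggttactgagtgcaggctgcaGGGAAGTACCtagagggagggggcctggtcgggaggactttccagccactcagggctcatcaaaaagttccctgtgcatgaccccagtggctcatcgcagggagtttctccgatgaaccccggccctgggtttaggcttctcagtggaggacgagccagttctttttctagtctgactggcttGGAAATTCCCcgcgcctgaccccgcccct
In Tlr5 the match begins 20 bases before the start and reads on the opposite strand. The Rel match, 92 bases before the start, reads as the motif on both strands and was counted at 1 position. Nfkbia has matches at 212 and 29 bases before the start. No match lay in the Nfkbib or Tlr6 windows, which says only that these letters are not in those windows.

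The TLR genes were all detected, and their levels differed widely. Per kilobase of exon, Tlr2, which pairs with Tlr1 or Tlr6 to bind bacterial lipoproteins, had the highest mean level over the 6 samples, at 127 CPM per kb (range 88.9 to 183), above the range of every other TLR. Tlr9 (27.8 CPM per kb), Tlr13 (26.1), Tlr1 (21.1), Tlr8 (15.8) and Tlr7 (14.8) followed, and each of these overlapped its neighbor in the order. Tlr3 (9.04 CPM per kb) and Tlr4 (8.49) overlapped each other and lay below Tlr7, and Tlr6 (3.61) and Tlr5 (2.91) were lowest and overlapped each other. The 3 receptors at an unadjusted p of at most 0.05 were thus the 3 with the lowest mean levels per kb of exon, though Tlr4 was close to Tlr3. Tlr7, Tlr8, Tlr9 and Tlr13 encode endosomal sensors of nucleic acids, and Tlr3 senses double-stranded RNA.

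**Figure D2:**
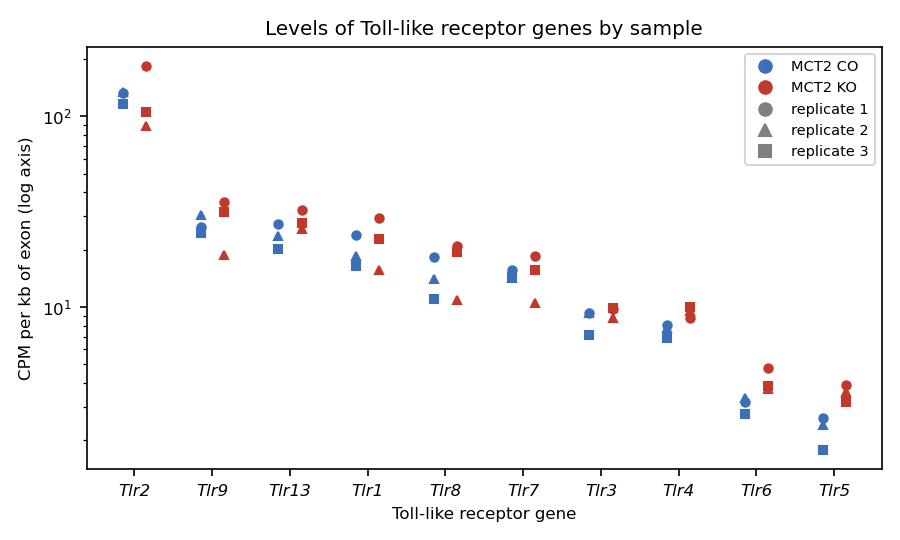
Level of each TLR gene in each sample, in CPM per kb of exon on a log axis; blue marks are the 3 MCT2 CO and red marks the 3 MCT2 KO samples, with a marker shape for each replicate number. Tlr2 lies above all other receptors, and the KO marks lie wholly above the CO marks for Tlr4, Tlr5 and Tlr6 alone.

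Tlr5 (chr1:182954788-182976044, plus strand), the receptor of bacterial flagellin, was at 12.5, 11.5 and 8.54 CPM in MCT2 CO and at 18.7, 17.2 and 15.2 CPM in MCT2 KO. Every KO sample lay above every CO sample. The difference was 0.64 ± 0.16 (SE) on the log2 scale, a fold of 1.56 with a 95% interval of 1.21 to 2.02, and the edgeR adjusted p was 0.380, the lowest of the 46 genes. Its DESeq2 adjusted p, over all genes with a count, was 0.0511.

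Tlr4 (chr4:66827584-66930284, plus strand), the receptor of bacterial lipopolysaccharide, was at 44.6, 43.4 and 38.3 CPM in MCT2 CO and at 48.6, 52.9 and 55.5 CPM in MCT2 KO. Again the groups did not overlap, and the KO sample nearest to CO was replicate 1. Its fitted difference was 0.31 ± 0.094 (SE) on the log2 scale, a fold of 1.24 (1.07 to 1.44), with an edgeR adjusted p of 0.429. Both Tlr4 and Tlr5 kept their direction and an unadjusted p of at most 0.05 in all 16 alternatives that refitted the data, those that left out a library included.

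Tlr6 was at 11.9, 12.5 and 10.2 CPM in MCT2 CO and at 17.9, 13.8 and 14.4 CPM in MCT2 KO. The groups did not overlap, but MCT2 CO replicate 2 and MCT2 KO replicate 2 lay close together. Its log2 fold change was 0.41 ± 0.14 (SE), a fold of 1.33 (1.06 to 1.67), with an edgeR adjusted p of 0.453. Its direction held in all 16 alternatives and its unadjusted p stayed at or below 0.05 in 14. For the other 7 receptors the groups overlapped, and their log2 fold changes ran from -0.021 for Tlr2 to 0.27 for Tlr13.

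Of those 7, Tlr3 and Tlr13 spread no more within MCT2 KO than within MCT2 CO, with SDs of 3.19 against 6.53 CPM and of 14.74 against 14.99 CPM. The other 5 spread more within MCT2 KO, and 3 of them are given here. Tlr2 was at 401, 404 and 348 CPM in MCT2 CO and at 552, 268 and 317 CPM in MCT2 KO. MCT2 KO replicate 1 thus lay above and the other KO samples below all CO samples. Tlr9 was at 91.2, 106 and 85.3 CPM in MCT2 CO and at 123, 65.4 and 110 CPM in MCT2 KO. Tlr8 was at 65.9, 50.3 and 39.6 CPM in MCT2 CO and at 75.1, 39.2 and 69.5 CPM in MCT2 KO. In both genes MCT2 KO replicate 2 lay below, and the other KO samples above, every CO sample.

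Cd14 encodes the co-receptor that passes lipopolysaccharide to TLR4, and Ly96 encodes MD-2, the subunit of the TLR4 receptor that binds it. Cd14 was at 313, 341 and 286 CPM in MCT2 CO and at 467, 264 and 284 CPM in MCT2 KO. Only MCT2 KO replicate 1 exceeded the CO samples, and the log2 fold change was 0.11 ± 0.21 (SE; edgeR adjusted p = 0.891). Ly96 was at 8.21, 6.42 and 7.19 CPM in MCT2 CO and at 7.71, 6.69 and 9.12 CPM in MCT2 KO. Its groups overlapped, with a log2 fold change of 0.11 ± 0.17 (SE; edgeR adjusted p = 0.867). The 95% interval excluded 0 for Tlr4 and included 0 for both co-receptor genes; whether they differ from Tlr4 was not tested.

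Nod1 and Nod2 encode cytosolic sensors of bacterial peptidoglycan fragments. Nod1 was at 46.8, 50.5 and 46.2 CPM in MCT2 CO and at 52.9, 34.3 and 68.6 CPM in MCT2 KO. MCT2 KO replicate 2 was the lowest and replicate 3 the highest of all 6 samples, and the log2 fold change was 0.12 ± 0.22 (SE; edgeR adjusted p = 0.891). Nod2 was at 20.5, 23.7 and 16.9 CPM in MCT2 CO and at 28.3, 18.4 and 26.8 CPM in MCT2 KO. Its groups overlapped through the same KO sample, with a log2 fold change of 0.27 ± 0.19 (SE; edgeR adjusted p = 0.680).

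Of the adaptors, Ticam1 (TRIF) serves TLR3 and TLR4, Ticam2 (TRAM) bridges TLR4 to TRIF, and Tirap (MAL) bridges TLR2 and TLR4 to MyD88. Ticam2 was at 2.74, 2.42 and 2.14 CPM in MCT2 CO and at 4.07, 2.79 and 4.74 CPM in MCT2 KO. The groups did not overlap, although MCT2 KO replicate 2 lay next to the highest CO sample. It had the highest fitted fold change of the 46 genes, at 0.66 ± 0.24 (SE) on the log2 scale, a fold of 1.58 (1.08 to 2.32), with an edgeR adjusted p of 0.491. This value rests on the part of the gene outside Tmed7, and its unadjusted p stayed at or below 0.05 in 12 of 16 alternatives.

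Ticam1 was at 30.7, 32.5 and 31.6 CPM in MCT2 CO and at 43.5, 28.7 and 34.1 CPM in MCT2 KO. Its KO samples lay on both sides of the CO samples, and the log2 fold change was 0.16 ± 0.15 (SE; edgeR adjusted p = 0.755). Tirap was at 29.0, 29.5 and 30.7 CPM in MCT2 CO and at 28.1, 28.8 and 26.9 CPM in MCT2 KO. All 3 KO values were below all 3 CO values, yet the difference was small, at -0.090 ± 0.081 (SE) on the log2 scale, with an edgeR adjusted p of 0.759.

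For all 8 kinase and ubiquitin ligase genes, as for the 3 IKK genes, the 95% interval lay within 0.58 on either side of 0 on the log2 scale. Tab1, which encodes a subunit of the TAK1 complex, was at 22.7, 22.5 and 22.2 CPM in MCT2 CO and at 27.7, 25.5 and 27.6 CPM in MCT2 KO. The CO samples lay within 1 CPM of each other and every KO sample was above them. On the log2 scale the fold change was 0.26 ± 0.084 (SE), a fold of 1.20 (1.05 to 1.37), with an edgeR adjusted p of 0.438, and the unadjusted p stayed at or below 0.05 in 15 of 16 alternatives. Map3k7, which encodes TAK1 itself, was at 174, 168 and 174 CPM in MCT2 CO and at 160, 174 and 161 CPM in MCT2 KO, so its groups overlapped.

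Irak4, the first kinase recruited to the MyD88 complex, was at 30.5, 30.3 and 26.3 CPM in MCT2 CO and at 35.6, 27.9 and 31.3 CPM in MCT2 KO. The groups overlapped, with a log2 fold change of 0.12 ± 0.12 (SE; edgeR adjusted p = 0.774). The remaining genes of this role, Irak1, Irak2, Traf3, Traf6 and Tab2, had log2 fold changes from -0.028 to 0.12, and none had an unadjusted p of at most 0.05.

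The IKK complex is made of the kinases IKKα (Chuk) and IKKβ (Ikbkb) and the scaffold NEMO (Ikbkg). Ikbkg was at 43.1, 42.8 and 39.0 CPM in MCT2 CO and at 51.7, 43.2 and 51.1 CPM in MCT2 KO. The groups did not overlap, but MCT2 KO replicate 2 was level with the top of CO. A log2 fold change of 0.22 ± 0.098 (SE) was fitted, with an edgeR adjusted p of 0.537. Ikbkb was at 103, 99.0 and 92.9 CPM in MCT2 CO and at 125, 87.3 and 108 CPM in MCT2 KO. Its KO values lay on both sides of CO, with a log2 fold change of 0.12 ± 0.13 (SE; edgeR adjusted p = 0.802). Chuk was at 117 CPM in every KO sample and at 113 to 132 CPM in MCT2 CO.

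The 5 NF-κB subunit genes were at 22.9 to 66.2 CPM per kb of exon. Rela, the subunit of the canonical dimer that activates transcription, had the highest mean level per kb, but its range overlapped that of Nfkb2. The order depends on the division by exon length, since Rela had a mean of 209 CPM in MCT2 CO and Rel a mean of 431 CPM. Rel, which encodes c-Rel, was at 465, 400 and 429 CPM in MCT2 CO and at 462, 247 and 307 CPM in MCT2 KO. MCT2 KO replicate 1 lay within the CO range and the other KO samples below it. The log2 fold change was -0.35 ± 0.21 (SE; edgeR adjusted p = 0.638). Nfkb2, the precursor of p52 in the non-canonical pathway, was at 283, 307 and 255 CPM in MCT2 CO and at 269, 239 and 251 CPM in MCT2 KO. The groups overlapped in MCT2 KO replicate 1, and the log2 fold change was -0.15 ± 0.099 (SE; edgeR adjusted p = 0.657). For Nfkb1, Rela and Relb the log2 fold changes were -0.14, -0.078 and -0.19. MCT2 KO replicate 2 was the lowest sample for all 5 subunit genes, and the 5 fitted values stayed below 0 in all 16 alternatives.

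Nfkbia and Nfkbiz, grouped here with the feedback inhibitors, had the highest levels per length of the 46 genes. Nfkbia, which encodes IκBα, was at 1267, 1182 and 881 CPM in MCT2 CO and at 1225, 1058 and 1130 CPM in MCT2 KO, and had the highest level per length, at 698 CPM per kb of exon. The groups overlapped fully, and the log2 fold change of 0.036 had a 95% interval of -0.31 to 0.38. Nfkbiz, which encodes the nuclear IκBζ, was at 1361, 1209 and 1104 CPM in MCT2 CO and at 1390, 1008 and 1137 CPM in MCT2 KO. Its KO samples lay on both sides of the CO range, with a log2 fold change of -0.056 ± 0.15 (SE; edgeR adjusted p = 0.925).

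Nfkbib, which encodes IκBβ, was at 130, 133 and 134 CPM in MCT2 CO and at 129, 79.4 and 92.1 CPM in MCT2 KO. The CO samples were close together, and MCT2 KO replicate 1 lay just below them while replicates 2 and 3 were far lower. The log2 fold change was -0.40 ± 0.16 (SE), a fold of 0.757 (0.584 to 0.981), with an edgeR adjusted p of 0.513. The unadjusted p stayed at or below 0.05 in 10 of 16 alternatives, and 35.0% of the gene's exons were shared with other spans.

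Tnfaip3, which encodes the ubiquitin-editing enzyme A20, was at 939, 832 and 691 CPM in MCT2 CO and at 1085, 525 and 693 CPM in MCT2 KO. Irak3, which encodes the inhibitory IRAK-M, was at 14.9, 12.2 and 8.84 CPM in MCT2 CO and at 14.8, 6.57 and 16.4 CPM in MCT2 KO. Both spread more within MCT2 KO than the groups differed, and their 95% intervals on the log2 scale ran from -0.67 to 0.48 and from -0.70 to 0.84. Nfkbie, which encodes IκBε, had a log2 fold change of -0.041 and groups that overlapped.

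**Figure D3:**
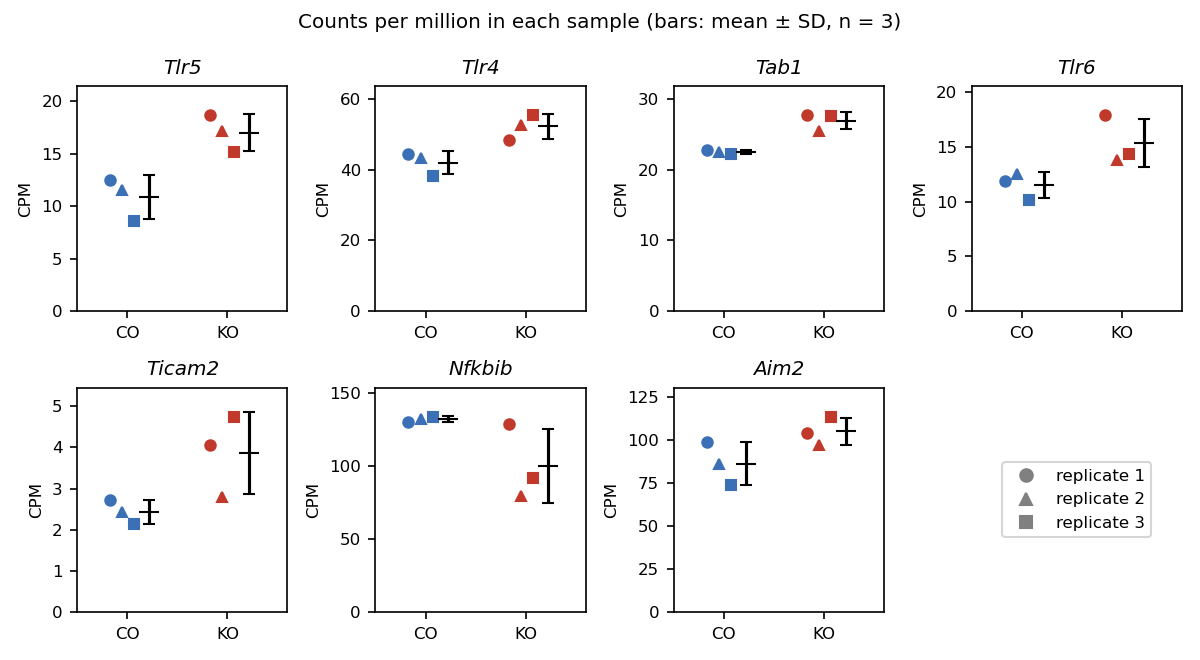
CPM in each sample of the 7 genes with an unadjusted p of at most 0.05 (edgeR), with every axis starting at 0; blue marks are MCT2 CO and red marks MCT2 KO samples, marker shapes give the replicate number, and bars are the mean ± SD (n = 3). The KO values lie wholly above the CO values for Tlr5, Tlr4, Tab1, Tlr6 and Ticam2 and wholly below for Nfkbib, and they overlap for Aim2.

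Of the inflammasome genes, Nlrp3, the sensor of cell damage and ion efflux, had the highest level per length, at 90.7 CPM per kb of exon. Pycard, the ASC adaptor, and Nlrc4 were lowest, at 5.48 and 5.37. The merged exons of Pycard fill 3800 of the 4160 bases of its span, so its level per kb depends on that annotation. Aim2, the sensor of cytosolic DNA, was at 99.1, 86.3 and 73.6 CPM in MCT2 CO and at 104, 97.3 and 113 CPM in MCT2 KO. MCT2 KO replicate 2 lay below the highest CO sample. The log2 fold change was 0.28 ± 0.12 (SE), a fold of 1.22 (1.00 to 1.47), with an edgeR adjusted p of 0.533, and the unadjusted p stayed at or below 0.05 in 9 of 16 alternatives.

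Casp4, the mouse caspase-11 gene, whose product senses cytosolic lipopolysaccharide, was at 164, 139 and 143 CPM in MCT2 CO and at 138, 106 and 142 CPM in MCT2 KO. The groups overlapped, with a log2 fold change of -0.20 ± 0.13 (SE; edgeR adjusted p = 0.645). Nlrp3 was at 389, 379 and 410 CPM in MCT2 CO and at 494, 255 and 279 CPM in MCT2 KO. No KO sample lay within the CO range, 1 being above it and 2 below. Pycard and Casp1 shared another pattern, with MCT2 KO replicates 1 and 3 above and replicate 2 below every CO sample. Pycard was at 20.7, 18.2 and 17.4 CPM in MCT2 CO and at 26.8, 14.5 and 27.2 CPM in MCT2 KO, and Casp1 was at 30.3, 28.5 and 22.2 CPM and at 35.7, 21.9 and 36.8 CPM. Nlrc4, a sensor of flagellin and secretion systems, and Gsdmd, which encodes gasdermin D, had log2 fold changes of 0.17 and 0.15.

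The spread followed single samples, as the plot of deviations shows. MCT2 KO replicate 1 was the highest of the 6 samples for 26 of the 46 genes, against 20.4% of all genes tested, and MCT2 KO replicate 2 was the lowest for 25, against 22.7%. MCT2 CO replicate 3 was the lowest for 18, against 23.2%. Set against the range of the CO samples, replicate 1 of MCT2 KO lay above it in 33 genes and below in 4. Replicate 2 lay above in 7 and below in 26, and replicate 3 lay above in 22 and below in 9. Over all genes each KO sample lay above the CO range in 27.4% to 29.4% and below it in 27.5% to 31.9%. The direction of a KO sample relative to MCT2 CO thus differed between KO samples.

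**Figure D4:**
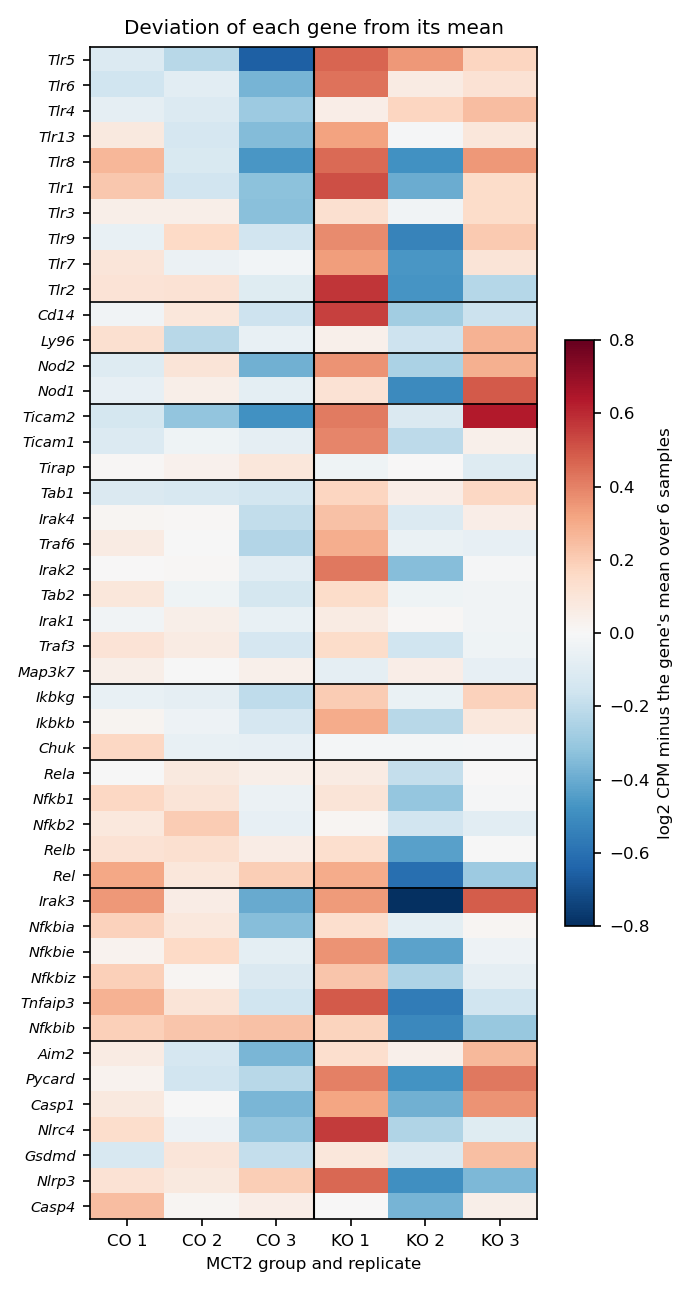
Log2 CPM of each of the 46 genes in each sample minus the gene's mean over the 6 samples; red is above and blue below the mean, columns are the 3 MCT2 CO and 3 MCT2 KO samples, and horizontal lines part the roles in the order TLR, co-receptor, NOD receptor, adaptor, kinase and ubiquitin ligase, IKK, NF-κB subunit, feedback inhibitor and inflammasome. MCT2 KO replicate 1 is mostly red (highest for 26 genes) and MCT2 KO replicate 2 mostly blue (lowest for 25).

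Cell markers differed between these samples too. Macrophage markers summed to 10557 CPM in MCT2 KO replicate 1, against 6695 and 7376 CPM in the other KO samples, and to 5548 CPM in MCT2 CO replicate 3, the lowest of all. The sum of fibroblast and endothelial markers was lower in every MCT2 KO sample (1817 to 1908 CPM) than in any MCT2 CO sample (2110 to 3385 CPM, highest in replicate 3). Its largest part was Col3a1, at 1187, 1252 and 2028 CPM in MCT2 CO and at 1017, 805 and 821 CPM in MCT2 KO. Of these 11 markers 8 were fitted lower and 3 higher in MCT2 KO. Col3a1, Dcn and Lum were lower at an unadjusted p of at most 0.05 in edgeR, and DESeq2 called the same 3. Of 10 B-cell markers tested, 8 were fitted lower in MCT2 KO, 3 of them (Cd79a, Ms4a1 and Blk) at that p with groups that did not overlap, and DESeq2 called 2. Their sum was 87.7 to 102 CPM in MCT2 CO, 109 and 119 CPM in MCT2 KO replicates 1 and 3 and 30.7 CPM in replicate 2, most of it from Ighm, at 62.5 to 73.7 CPM in MCT2 CO and at 81.7, 19.5 and 94.96 CPM in MCT2 KO. The part of these differences in the pattern was not tested.

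Leaving out single libraries moved the counts accordingly. Without MCT2 KO replicate 2, 17 of the 46 genes were at an unadjusted p of at most 0.05, all higher. Pycard, Casp1, Nod1, Nod2, Tlr1, Tlr8, Tlr9 and Tlr13 were among them. Of all genes 11.6% were at that p in either direction. The lowest edgeR adjusted p of the 46 genes was then 0.362. Without MCT2 KO replicate 1, 18 of 46 were fitted above 0 and 6 of 10 TLR genes were, and the genes at an unadjusted p of at most 0.05 were Tlr4, Tlr5 and Tab1, which were higher, and Nfkbib, Nlrp3, Rel, Tlr2 and Tnfaip3, which were lower. Of all genes 9.12% were then at that p in either direction. Without MCT2 CO replicate 3 or without MCT2 KO replicate 3, 3 of the 46 genes were at that p. The shares of all genes were 5.8% and 5.92%. With MCT2 CO replicate 3 and MCT2 KO replicate 2 both left out, a choice made after seeing the data, 12 were, all higher. The share of all genes at that p, in either direction, was then 9.25%.

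The 4 further lists of pathway genes are given by direction and unadjusted p, since edgeR called none of the genes tested. Of 30 other TLR pathway genes tested, 18 were fitted above and 12 below 0, and 1 was higher at an unadjusted p of at most 0.05. It was Ikbke, which encodes the IKKε kinase, at 26.4, 26.3 and 19.7 CPM in MCT2 CO and at 28.6, 37.3 and 48.9 CPM in MCT2 KO, with no overlap and a log2 fold change of 0.67 ± 0.20 (SE; edgeR adjusted p = 0.430). The next by p were Lbp, which encodes the lipopolysaccharide-binding protein, and Traf2, with log2 fold changes of 0.26 and -0.15 and overlapping groups. Of 16 other NF-κB regulators, 9 were fitted above and 7 below 0, and 3 were higher at that p. They were Cd200r1, an inhibitory receptor of myeloid cells (log2 fold change 0.90), Nlrx1 (0.54) and Tnfaip8l2 (0.36).

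Of 19 other inflammasome genes tested, 15 were fitted above and 4 below 0, and 2 were higher at an unadjusted p of at most 0.05. Il1rn, which encodes the IL-1 receptor antagonist, was at 136, 113 and 85.8 CPM in MCT2 CO and at 184, 143 and 152 CPM in MCT2 KO, with no overlap and a log2 fold change of 0.52 ± 0.17 (SE; edgeR adjusted p = 0.444). Il18, a cytokine matured by caspase-1, had a log2 fold change of 0.36. Il18bp, which encodes the protein that binds and blocks IL-18, was at 32.4, 40.5 and 26.8 CPM in MCT2 CO and at 57.2, 30.0 and 71.3 CPM in MCT2 KO, so its groups overlapped. Il1b was at 842, 878 and 637 CPM in MCT2 CO and at 1143, 452 and 728 CPM in MCT2 KO, and repeated the pattern of a high replicate 1 and a low replicate 2.

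Of 30 NF-κB target genes tested, 18 were fitted above and 12 below 0, and 3 were higher at an unadjusted p of at most 0.05. Nos2, which encodes inducible nitric oxide synthase, was at 1.27, 2.42 and 0.978 CPM in MCT2 CO and at 3.86, 6.66 and 17.8 CPM in MCT2 KO. Its groups did not overlap, and its log2 fold change was 2.60 ± 0.59 (SE; edgeR adjusted p = 0.370). Slc7a11, the cystine transporter, and Tnfaip2 had log2 fold changes of 0.54 and 0.49. Tnf was at 181, 156 and 169 CPM in MCT2 CO and at 187, 90.7 and 108 CPM in MCT2 KO, with overlapping groups. Cxcl10 and Ccl2 had 0 counts in all samples. As with Myd88, a count of 0 in this table need not mean that a gene was not expressed, so these 2 genes are not read further. No gene of the 4 lists was called by edgeR, which called 0 of the 13485 genes tested. DESeq2 called none of them either, against 0.584% of all genes. Nos2 came close by DESeq2 on all genes with a count, with a log2 fold change of 2.61 and an adjusted p of 0.0501.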

How the data were processed

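Libraries were poly-A enriched and stranded (TruSeq Stranded mRNA) and were sequenced on an Illumina HiSeq. Per the submitters' processing notes and the study's methods, the authors used FastQC 0.12.0, MultiQC 1.28, STAR 2.7.11b on GRCm38, featureCounts 2.1.1 and DESeq2 1.18.1, and deposited raw read counts per gene, without normalization or pooling. The annotation, feature type and strand setting of the counting are not given in the sources used here. Listed positions matched GENCODE M21 on GRCm38 for 2.4% of the shared identifiers, while span lengths matched for 98.1%, so positions were taken from GENCODE M21 by Ensembl identifier.

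The counts were analysed with edgeR 4.0.16 (filterByExpr with a minimum count of 10 and a minimum total of 15, TMM, quasi-likelihood test without covariates) in R 4.3.3, with Benjamini-Hochberg adjustment over all 13485 genes kept. CPM are TMM-normalized. The threshold of a call was 0.05 for the adjusted p and 0.58 in either direction for the log2 fold change. Levels per kb use the merged exon length in GENCODE M21. The listed gene lengths are whole gene spans, so counts may include reads from introns that this length leaves out. DESeq2 1.42.0, limma-voom 3.58.1, other scalings, other filters, a replicate block and each library left out were the alternatives. The procedure was tested on simulated data. Samples were grouped by their titles. No pair of replicates agreed within sampling noise. The counting error is small at these depths, and intervals cover these 6 libraries only.

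The genes and the lists were chosen with earlier results of these data known. Values in every sample and tests are given for genes with an unadjusted p of at most 0.05 or called by DESeq2 and for the 2 genes with the lowest p in each role; other members are given by range or, where they show the spread between samples, by value, chosen after their values were seen. For the other lists, the 3 genes with the lowest p are named; Il1b, Tnf, Cxcl10 and Ccl2 were added after their values were seen. Figures were drawn with Python 3.11.15.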

Additional observations from a re-analysis of the deposited data

How the results depend on the processing

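No member was called under any of the alternatives run. The count of members at an unadjusted p of at most 0.05 (7) ranged from 3 to 17 when single libraries were left out. Of all genes 5.8% to 11.6% were at that p in those fits. The count of members with non-overlapping groups (8) ranged from 8 to 22. Smaller groups separate more easily, and the share of all genes is not given here, so these values cannot be set against 8. The median log2 fold change of the IKK genes (0.12) ranged from -0.0043 to 0.25 when single libraries were left out. Medians also turned for adaptors (-0.0010 to 0.30), co-receptors (-0.030 to 0.24), kinases and ubiquitin ligases (-0.00048 to 0.13) and feedback inhibitors (-0.22 to 0.10), each lowest without MCT2 KO replicate 1 and highest without MCT2 KO replicate 2. With MCT2 CO replicate 3 and MCT2 KO replicate 2 both left out, a choice made after seeing the data, these counts were 12 and 23. The same limit holds for the 23. Among the genes given with their full statistics, directions turned for Nfkbiz (0.028 without MCT2 CO replicate 1 and 0.046 without MCT2 KO replicate 2), for Cd14, Ticam1 and Ikbkb without MCT2 KO replicate 1, and for Ly96 and Nod1 without MCT2 KO replicate 3. Over the libraries left out, the log2 fold changes ran from -0.18 to 0.046 for Nfkbiz, from -0.18 to 0.26 for Cd14, from -0.0010 to 0.30 for Ticam1, from -0.0043 to 0.25 for Ikbkb, from -0.0085 to 0.21 for Ly96 and from -0.13 to 0.35 for Nod1. The cause was not tested beyond the library left out. Slc16a7 met both thresholds of a call with DESeq2. Its log2 fold change was -1.05 on the same genes (DESeq2 adjusted p = 0.00952) and -1.04 on all genes with a count (DESeq2 adjusted p = 0.00908). The edgeR log2 fold change, -1.05, passed its threshold as well, but the edgeR adjusted p of 0.370 did not. DESeq2 on all genes with a count called 83 genes where edgeR called 0. At an unadjusted p of at most 0.05 edgeR held 1264 of 13485 genes. DESeq2 held 1240 of 18508 genes with a count at that p, and 1185 of the same 13485 genes. With a replicate block 8 members were at an unadjusted p of at most 0.05, 2 of them lower, and the lowest adjusted p was 0.348. Deviations of same-numbered samples correlated at 0.216, -0.247 and -0.161, and not every sample correlated best with its own number. The titles give only a replicate number, so whether same-numbered samples were handled together is not known. Of the TLR genes, 8 of 10 in place of 9 were fitted above 0 with library totals alone, with limma-voom and with the block. Depth limits mainly genes under 10 CPM, such as Ticam2, Ly96, Nos2 and Cd200r1.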

Other observations

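Among sensors outside the list above, Tlr12, an endosomal receptor of profilin, was at 55.6, 52.6 and 35.2 CPM in MCT2 CO and at 76.0, 29.5 and 49.5 CPM in MCT2 KO. Naip2 and Naip5, which encode partners of NLRC4, followed the same order of KO samples, at 121, 59.2 and 93.7 CPM and at 62.3, 28.5 and 50.9 CPM. Their log2 fold changes were 0.40 for Naip2 and 0.12 for Naip5, and neither had an unadjusted p of at most 0.05. Nlrp1b was at 57.5, 56.8 and 45.4 CPM in MCT2 CO and at 72.5, 30.9 and 71.5 CPM in MCT2 KO. All of these genes were chosen after their values were seen.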
